A study of Mus musculus with 8 samples.

Results

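The 44 genes described here drive or mark the division of cells, which in the small intestine takes place mainly in the crypts. They were chosen by name, through the gene symbols of the array, and 40 of them had a probe set among the 22206 on the array (19505 different gene symbols). Ccnd1, Mcm7, Ccnb1 and Foxm1 are not analysed here. By role they comprised 5 measured regulators of the step from G1 to S phase, 15 genes of DNA replication and nucleotide supply (S phase genes) and 20 genes of G2 and mitosis (mitosis genes). Each of the 40 had 1 probe set, and in 37 the mean signal exceeded the median over the whole array.

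The samples were pieces of ileum of about 4 cm from male KKAy mice, a strain with the yellow agouti allele that becomes obese and diabetic. Their stated age is 14 weeks and their weight 30 g. The food of both groups drew 45% of its energy from fat. After 4 weeks on it, 4 mice received voglibose, an inhibitor of the alpha-glucosidases of the brush border, at 1 mg/kg by daily gavage, and 4 received the same volume of water, both for 8 weeks. Every mouse gave 1 Affymetrix array, made from 250 ng of RNA.

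Crypt cells divide rapidly, move up onto the villus and stop dividing as they mature. Entry into S phase is set by D- and E-type cyclins, the kinase Cdk2 and the E2F transcription factors. Before S phase, the origins of replication are loaded with the MCM helicase by Cdc6 and Cdt1. In S phase they are fired with Cdc45 and GINS. Cdk1 with A- and B-type cyclins brings cells into mitosis, and Cdc20 and Ube2c bring about the destruction of the cyclins at its end. Many S phase genes are controlled through E2F sites in their promoters. Many mitosis genes are controlled through the cell cycle genes homology region (CHR), bound by the DREAM and B-MYB complexes, together with CCAAT boxes bound by NF-Y.

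The 250 bases before the transcription start were taken from RefSeq promoters (GRCm38.p6) for 34 of the 44 genes. They are printed so that the letters of the CHR, CCAAT and E2F elements can be seen in members of each class. Both strands were searched. The CHR was represented by the letters TTTGAA and by the variant form TTCGAA, and the NF-Y box by CCAAT. E2F sites were represented by TTCCCGC or, as the alternative form, by TTGGCGC. In the promoters below, capitals mark the matches, read 5′ to 3′ on the strand of the gene. Cdk1 and Cdc45 had the smallest p of the mitosis and S phase genes, Mki67 and Mcm2 were set as examples of each class, and Mcm6 was added after its E2F matches were seen.
Cdk1, chr10:69352913-69353162, minus strand: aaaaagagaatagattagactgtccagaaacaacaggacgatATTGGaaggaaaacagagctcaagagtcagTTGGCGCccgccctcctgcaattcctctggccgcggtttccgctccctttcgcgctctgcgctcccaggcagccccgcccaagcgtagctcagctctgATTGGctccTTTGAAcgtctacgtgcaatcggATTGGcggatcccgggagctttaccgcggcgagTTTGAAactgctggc
Mki67, chr7:135716380-135716629, minus strand: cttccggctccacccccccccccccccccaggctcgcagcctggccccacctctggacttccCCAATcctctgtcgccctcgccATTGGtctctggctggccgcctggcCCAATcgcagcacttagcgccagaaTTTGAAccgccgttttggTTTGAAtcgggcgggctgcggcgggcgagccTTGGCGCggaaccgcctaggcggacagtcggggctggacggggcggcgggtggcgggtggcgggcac
Mcm2, chr6:88898781-88899030, minus strand: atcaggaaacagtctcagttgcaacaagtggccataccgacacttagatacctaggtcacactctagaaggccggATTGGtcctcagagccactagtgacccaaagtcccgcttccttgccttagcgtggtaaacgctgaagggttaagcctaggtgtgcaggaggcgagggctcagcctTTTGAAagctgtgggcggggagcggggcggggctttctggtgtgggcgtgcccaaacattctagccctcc
Cdc45, chr16:18811973-18812222, minus strand: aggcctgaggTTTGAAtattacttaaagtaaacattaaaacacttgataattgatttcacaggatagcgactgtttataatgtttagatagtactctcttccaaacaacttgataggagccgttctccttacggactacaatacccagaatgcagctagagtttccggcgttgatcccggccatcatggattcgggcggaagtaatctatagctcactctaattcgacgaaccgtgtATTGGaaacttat
Mcm6, chr1:128359706-128359955, minus strand: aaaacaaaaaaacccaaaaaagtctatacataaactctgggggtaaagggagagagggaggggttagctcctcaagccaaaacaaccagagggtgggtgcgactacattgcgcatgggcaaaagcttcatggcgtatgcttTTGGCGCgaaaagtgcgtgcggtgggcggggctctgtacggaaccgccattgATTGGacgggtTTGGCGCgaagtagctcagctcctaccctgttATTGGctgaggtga
In Cdk1, TTTGAA stood 71 and 15 bases before the start, and CCAAT boxes on the opposite strand began 208, 80 and 48 bases before it. Mki67, which encodes the proliferation antigen Ki-67, held 2 TTTGAA matches and 3 CCAAT boxes. Each of these mitosis genes also held TTGGCGC, 178 bases before the start in Cdk1 and 67 in Mki67. The S phase genes Mcm2 and Cdc45 held neither of the E2F sequences in this window, and each held TTTGAA on the gene strand, 70 and 240 bases before the start. Mcm6 held TTGGCGC at 109 and 46 bases before the start and no TTTGAA. Across the classes, the CHR letters TTTGAA were present in 8 of 17 mitosis genes (47.1%), in 2 of 14 S phase genes (14.3%) and in 18.3% of the 27025 genes in the table. A CCAAT box was present in 16 of 17 mitosis genes, 10 of 14 S phase genes and 37.5% of all genes. At least 1 of the E2F sequences was present in 6 of 14 S phase genes (42.9%), 3 of 17 mitosis genes (17.6%) and 6.45% of all genes. Some matches overlapped in Ccnb1 and Ube2c. A match is a description of these letters and not evidence of binding.

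The arrays had medians from 5.89 to 5.94 and correlated with each other at 0.982 to 0.994. Epithelial genes were bright in every mouse, with Vil1 (villin) from 15.30 to 15.82 and Epcam from 16.99 to 17.44. Genes that mark the distal ileum were not: the bile acid binding protein gene Fabp6 ran from 3.54 in voglibose mouse 2 and 4.01 in water mouse 4 to 17.50 in water mouse 2. The ileal bile acid transporter gene Slc10a2 was likewise lowest in water mouse 4 (5.69) and voglibose mouse 2 (6.12). Counts are therefore also given without these mice. In whole tissue, fewer cells of a type and less RNA per cell cannot be told apart.

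Cell cycle genes as a whole did not separate voglibose from water mice. Of the 40 genes, 15 had a higher and 25 a lower mean signal in voglibose mice, with a median difference of -0.09 on the log2 scale (voglibose minus water). The median over all probe sets was -0.005, and over those above the median signal, where 37 of the 40 lie, it was -0.04. The share with a lower mean was 62.5% of the 40, 50.9% of all probe sets and 57.0% of those above the median signal. At the threshold in the submitters' design text, a fold change over 1.2 with an unadjusted p under 0.05, 2 of 40 passed (5%; Ccne2 and Cdc45), against 7.52% of all probe sets. Both were lower in voglibose mice, as were 4.44% of all probe sets at this threshold, and 0 members passed as higher, against 3.08%. After adjustment over all probe sets 0 members passed, as did 0 of the 22206 probe sets (0%; limma, Benjamini-Hochberg), and the members' adjusted p ran from 0.659 to 0.997. The groups did not overlap in 0 of the 40 genes, against 4.35% of all probe sets. The median SE of a member's difference was 0.19.

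**Figure D1:**
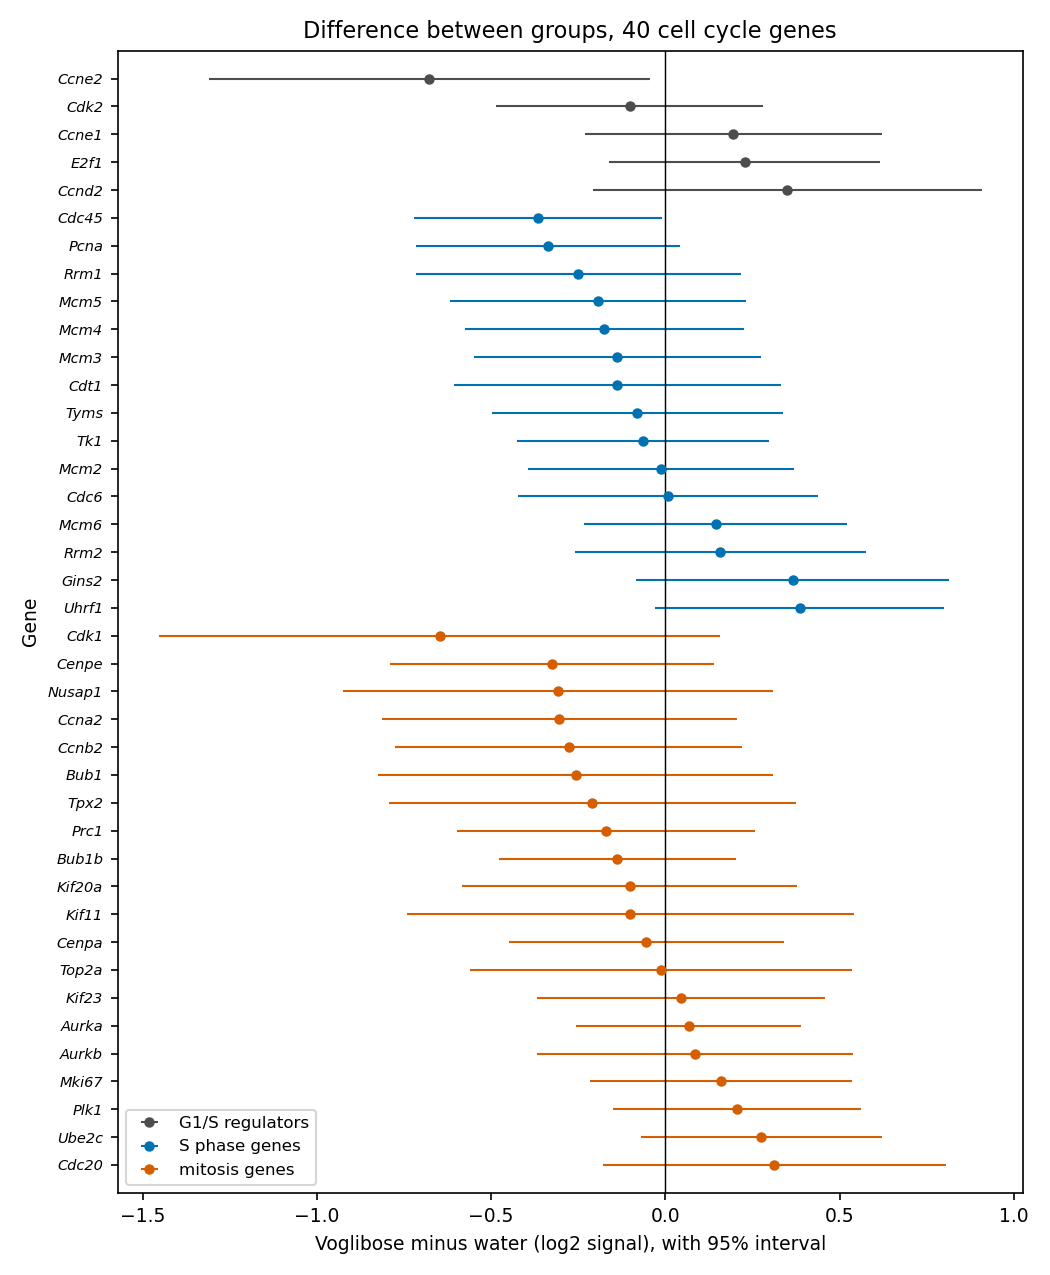
Difference in log2 signal between 4 voglibose and 4 water mice for each of the 40 measured genes (x axis, voglibose minus water; points are differences and bars 95% intervals from limma), coloured by role. The intervals of Ccne2 and Cdc45 lie below 0 before adjustment and all the others include 0.

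The passing genes depended on single mice. Without voglibose mouse 1 the count was 0 and without water mouse 2 it was 1 (Cdc45). Without voglibose mouse 3 it was 4 (Ccne2, Cdc45, Pcna and Cdk1, all lower), and without voglibose mouse 4 it was 3 (Gins2, higher, and Ccna2 and Ccnb2, lower). Without water mouse 4 and voglibose mouse 2, a choice made after the data were seen, 2 genes passed, but these were Ube2c and Cdc20, both higher (0.43 ± 0.17 and 0.61 ± 0.18, SE). The median difference was then 0.045 in place of -0.09, so its sign rested on these mice.

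Among the G1/S regulators, Ccne2, which encodes cyclin E2, a partner of Cdk2 at the start of S phase, had the lowest p. Water mice 1 to 4 had log2 signals of 7.79, 8.68, 8.10 and 8.87, and voglibose mice 1 to 4 had 7.01, 7.97, 8.15 and 7.60. Voglibose mouse 1 was lowest and water mouse 4 highest, and the groups overlapped. The difference was -0.68 ± 0.29 (SE; limma unadjusted p = 0.0381, adjusted p = 0.659). It was -0.45 without voglibose mouse 1, with an unadjusted limma p of 0.124. The paralogue Ccne1 (cyclin E1) lay at 6.71, 7.52, 6.93 and 7.40 in water and at 7.34, 7.50, 7.36 and 7.14 in voglibose mice, a difference of 0.20 ± 0.19. Leaving out water mouse 1 gave 0.05, and leaving out water mouse 2 gave 0.32. Both cyclins E thus overlapped between groups, and no test of the difference between the paralogues was made.

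Ccnd2, which encodes the growth factor dependent cyclin D2, had 11.22, 11.21, 11.07 and 10.62 in the water group and 12.10, 10.80, 11.33 and 11.29 in the voglibose group. Voglibose mouse 1 stood highest and voglibose mouse 2 below 3 of the water mice. The difference was 0.35 ± 0.25. It was 0.11 without voglibose mouse 1 and 0.54 without voglibose mouse 2 (limma unadjusted p = 0.0444). E2f1, an activator of S phase genes, had 3.59, 3.32, 3.91 and 3.62 in the water group and 4.03, 3.52, 4.06 and 3.74 in the voglibose group. These are dim signals, since the lower quartiles of the arrays lie between 4.05 and 4.18, and the groups overlapped (difference 0.23 ± 0.18). The kinase gene Cdk2 differed by -0.10 ± 0.17, with the opposite sign without voglibose mouse 2 (0.025).

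Of the S phase genes, 5 had higher and 10 lower means in voglibose mice, with a median difference of -0.08. Cdc45, a helicase subunit needed for origin firing, was the only member of this class to pass at the unadjusted threshold. The water group had signals of 7.28, 7.02, 7.29 and 7.60, and the voglibose group 6.97, 6.82, 7.16 and 6.78. The highest voglibose mouse lay above water mouse 2, so the groups overlapped in that mouse. The difference was -0.37 ± 0.16 (limma unadjusted p = 0.0453, adjusted p = 0.659), with a 95% interval from -0.72 to -0.0091. Leaving out single mice gave -0.26 to -0.46, with unadjusted p above 0.05 except without voglibose mouse 3 or water mouse 2.

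Pcna, the sliding clamp of the replicative polymerases, had 15.46, 15.27, 15.22 and 15.82 in the water group and 14.89, 15.09, 15.36 and 15.08 in the voglibose group. Voglibose mouse 3 lay within the water range and the other voglibose mice below it. The difference was -0.34 ± 0.17 (95% interval -0.72 to 0.04), and -0.21 without water mouse 4. Rrm1 and Rrm2, the large and small subunits of ribonucleotide reductase, differed by -0.25 ± 0.21 and 0.16 ± 0.19. For Rrm2 the water group had signals of 6.46, 6.18, 6.38 and 6.89 and the voglibose group 6.94, 6.77, 6.39 and 6.44, and the groups overlapped.

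The genes with the highest positive differences of the class were Uhrf1 and Gins2. Uhrf1, which carries DNA methylation through replication, had 7.61, 6.92, 6.92 and 7.54 in the water group and 7.68, 7.76, 7.52 and 7.57 in the voglibose group. Water mice 2 and 3 were low, while water mice 1 and 4 lay among the voglibose mice. The difference was 0.39 ± 0.19 (limma unadjusted p = 0.0659). It was 0.28 without water mouse 2 or water mouse 3, and 0.51 without water mouse 1 (limma unadjusted p = 0.0239). Gins2, a subunit of the GINS complex, had 5.63, 5.71, 5.23 and 5.83 in the water group and 5.90, 6.01, 6.42 and 5.53 in the voglibose group. Voglibose mouse 4 lay among the water mice and the other voglibose mice above them, a difference of 0.37 ± 0.20 (0.21 without voglibose mouse 3).

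The MCM helicase subunits differed by little in either direction. Mcm2 had 8.29, 7.87, 7.71 and 8.02 in the water group and 7.80, 7.95, 7.80 and 8.29 in the voglibose group, a difference of -0.01 ± 0.17 whose sign changed with normalization and with the mice left out. Mcm3, Mcm4 and Mcm5 differed by -0.14, -0.18 and -0.19, and Mcm6 by 0.15, each with an SE between 0.17 and 0.19. The licensing factors Cdc6 and Cdt1 differed by 0.01 ± 0.20 and -0.14 ± 0.21. Thymidylate synthase (Tyms) and thymidine kinase (Tk1) differed by -0.08 ± 0.19 and -0.06 ± 0.16. The signs for Cdc6, Tyms and Tk1 changed with single mice left out.

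Mitosis genes varied more between mice of the voglibose group than between the groups. Of 20 genes, 7 were higher and 13 lower in voglibose mice, with a median difference of -0.10, and 0 passed the unadjusted threshold (against 7.52% of all probe sets). Cdk1, the kinase that starts mitosis, had 8.35, 8.57, 8.59 and 8.82 in water mice, all within a narrow band. In voglibose mice it had 7.23, 7.10, 8.99 and 8.42, so mice 1 and 2 lay far below every water mouse, mouse 3 above all of them and mouse 4 within them. The difference was -0.65 ± 0.37 (95% interval -1.45 to 0.16), with -0.37 without voglibose mouse 2, -0.41 without voglibose mouse 1 and -0.999 without voglibose mouse 3 (limma unadjusted p = 0.00675).

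The markers used most widely for dividing cells did not share that difference. Mki67 had 13.50, 13.13, 13.27 and 13.24 in the water group and 13.30, 13.11, 13.73 and 13.64 in the voglibose group, a difference of 0.16 ± 0.17. Voglibose mice 3 and 4 were above the water mice, and mice 1 and 2 within or just below them. Top2a, the topoisomerase that untangles chromosomes, had 10.35, 10.54, 10.34 and 10.91 in the water group and 10.13, 10.07, 11.20 and 10.69 in the voglibose group. Its difference was -0.01 ± 0.25, and its sign changed with normalization and with the mice left out. The 95% intervals, -0.22 to 0.54 for Mki67 and -0.56 to 0.54 for Top2a, leave room for changes in either direction.

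Cenpe, the kinetochore motor that carries chromosomes to the spindle equator, had 11.02, 10.61, 10.68 and 11.23 in the water group and 10.16, 10.33, 10.82 and 10.93 in the voglibose group. Again voglibose mice 1 and 2 were lowest and mice 3 and 4 within the water range (difference -0.33 ± 0.21). Cdc20, the activator of the anaphase-promoting complex, had 6.20, 5.82, 6.28 and 6.97 in the water group and 6.62, 6.38, 6.74 and 6.78 in the voglibose group. Water mouse 4 was the highest of all, and the other water mice were below every voglibose mouse. The difference was 0.31 ± 0.22, and 0.53 without water mouse 4 (limma unadjusted p = 0.0122). Ube2c, the ubiquitin-conjugating enzyme of the same complex, had 9.43, 9.52, 9.15 and 9.67 in the water group and 9.80, 9.49, 9.87 and 9.71 in the voglibose group. Voglibose mouse 2 lay among the water mice, and the difference was 0.28 ± 0.16.

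The low position of voglibose mice 1 and 2 was shared by much of the class. It was noticed in the data, and the following genes were picked for showing it. Tpx2, which activates Aurora A on the spindle, had 8.89, 8.80, 9.77 and 9.88 in voglibose mice 1 to 4 and 9.18 to 9.83 in water mice. Nusap1, a spindle-associated protein, had 10.39, 10.11, 11.32 and 11.26 against 10.76 to 11.49, and Ccna2 (cyclin A2) had 10.26, 10.24, 10.80 and 11.22 against 10.63 to 11.20. The kinesin gene Kif11 had 10.58, 10.69, 11.17 and 12.11 against 11.09 to 11.51. The checkpoint kinase gene Bub1 had 6.89, 6.32, 7.69 and 7.44 against 7.22 to 7.43. Ccnb2 (cyclin B2) had 9.60, 9.93, 10.05 and 10.82 against 10.29 to 10.43. In each of these, mice 1 and 2 lay below every water mouse. In Ccnb2 mouse 3 did too.

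The lowest signal of all 8 mice was in voglibose mouse 2 for 10 of the 20 mitosis genes and in voglibose mouse 1 for 4. Together these are 14 of 20, where 27.3% of all probe sets had their lowest signal in 1 of these mice. The highest signal was in voglibose mouse 4 for 8 genes, in voglibose mouse 3 for 6 and in water mouse 4 for 4, together 18 of 20, against 38.7% of all probe sets. These mice were picked after the values were seen. The genes with their lowest signal in a water mouse were Ube2c, Cdc20, Plk1, Kif23, Aurka and Aurkb. The genes with their highest signal in another mouse were Prc1 (water mouse 3, 7.82) and Aurka (voglibose mouse 1, 7.38). The Aurora kinase gene Aurka had 7.38, 7.08, 6.97 and 7.18 and its paralogue Aurkb 7.74, 7.83, 8.04 and 7.25 in voglibose mice 1 to 4. In Plk1, the polo kinase, mouse 1 (9.03) was close to mouse 4 (9.11), and mice 2 and 3 had 8.72 and 8.91.

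**Figure D2:**
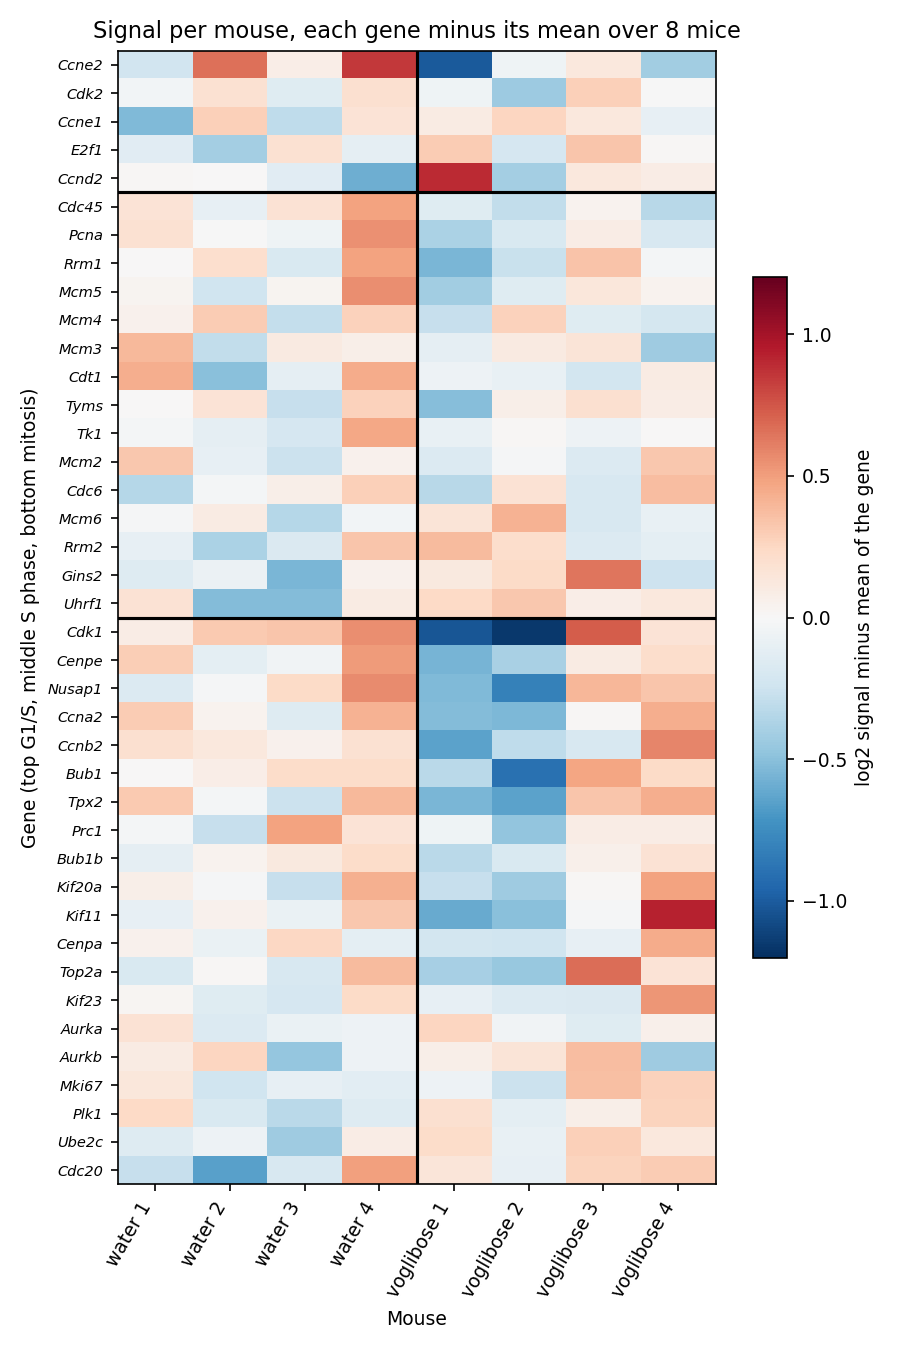
Log2 signal of each of the 40 genes (rows) in each mouse (columns), minus the gene's mean over the 8 mice. Blue is below and red above that mean. Horizontal lines part G1/S regulators, S phase genes and mitosis genes, and the vertical line parts water from voglibose mice. Voglibose mouse 2 is below the mean in 19 of 20 mitosis genes and 6 of 15 S phase genes, and voglibose mouse 1 in 15 of 20 and 11 of 15.

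The spread within groups differed by class. The SD was larger among voglibose than among water mice in 16 of 20 mitosis genes and in 5 of 15 S phase genes, against 44.9% of all probe sets. The median SD of the mitosis genes was 0.23 in water and 0.36 in voglibose mice, and that of the S phase genes was 0.27 and 0.25. Over all probe sets it was 0.25 and 0.23. Cdk1 had the widest gap, with an SD of 0.19 in water and 0.92 in voglibose mice, followed by Bub1 with 0.11 and 0.61. Cdc20 went the other way, with 0.48 and 0.18. The difference in spread was not tested.

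**Figure D3:**
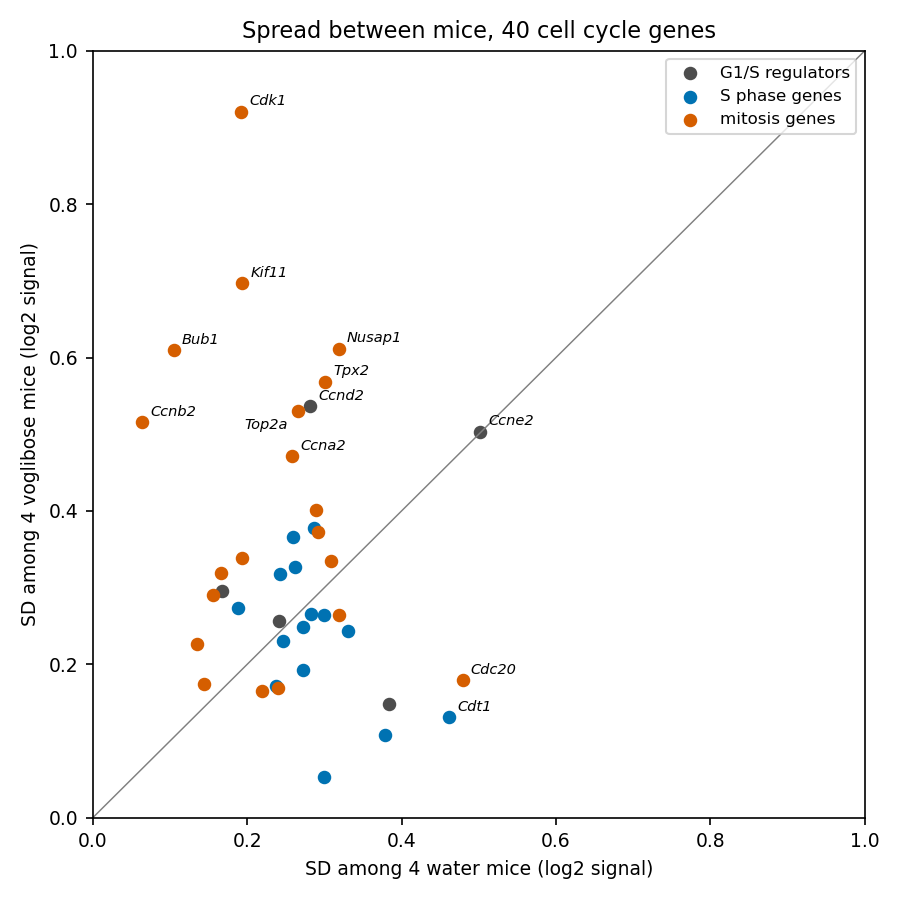
SD of the log2 signal among the 4 water mice (x axis) against the SD among the 4 voglibose mice (y axis) for each of the 40 genes, coloured by role. The line marks equal SDs, and genes with an SD over 0.45 in either group are named. Mitosis genes lie mostly above the line, with Cdk1 at the top.

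The S phase and mitosis classes were then set against each other. Each gene was centred on its mean over the 8 mice, and the genes of a class were averaged per mouse. For S phase genes, water mice 1 to 4 averaged 0.08, -0.10, -0.17 and 0.29 and voglibose mice 1 to 4 averaged -0.14, 0.06, 0.03 and -0.04. For mitosis genes the same mice averaged 0.05, -0.05, -0.06 and 0.23, and -0.27, -0.38, 0.18 and 0.29. Water mouse 4 was high in both classes, while voglibose mouse 2 was lowest for mitosis and near the average for S phase. The S phase mean minus the mitosis mean was -0.02 ± 0.08 (SD, n = 4) among water mice and 0.02 ± 0.33 (SD, n = 4) among voglibose mice. The difference between groups was 0.04, smaller than the spread between mice, and -0.10 without voglibose mouse 2. Within the voglibose group the value was 0.12, 0.44, -0.15 and -0.33, outside the water range of -0.12 to 0.06 in each mouse. No p is given for these averages because the genes were chosen with earlier results known.

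The class means also spread differently. The SD of the mitosis mean was 0.13 among water and 0.33 among voglibose mice, and that of the S phase mean was 0.21 and 0.09. For the lists of other genes described below, it was 0.13 and 0.28 for spindle and kinetochore genes. For replication factors it was 0.12 and 0.16, so they did not share the narrower voglibose spread of the S phase mean. Deviations from the group means were compared gene by gene over the 8 mice, as a description. The median Pearson correlation was 0.52 over the 190 pairs of mitosis genes, 0.32 over the 105 pairs of S phase genes and 0.17 over the 300 pairs across the classes. The mean over all pairs of probe sets was 0.0019, beside means of 0.42, 0.30 and 0.14 for these sets of pairs. All pairs share the same 8 arrays. Of the mitosis genes, Tpx2 and Ccna2 followed the mean of the others most closely (0.96 and 0.93), and Aurka and Aurkb ran against it (-0.21 and -0.30). In the S phase class, Pcna and Tk1 stood at 0.90 and 0.89 and Mcm6 at 0.12.

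**Figure D4:**
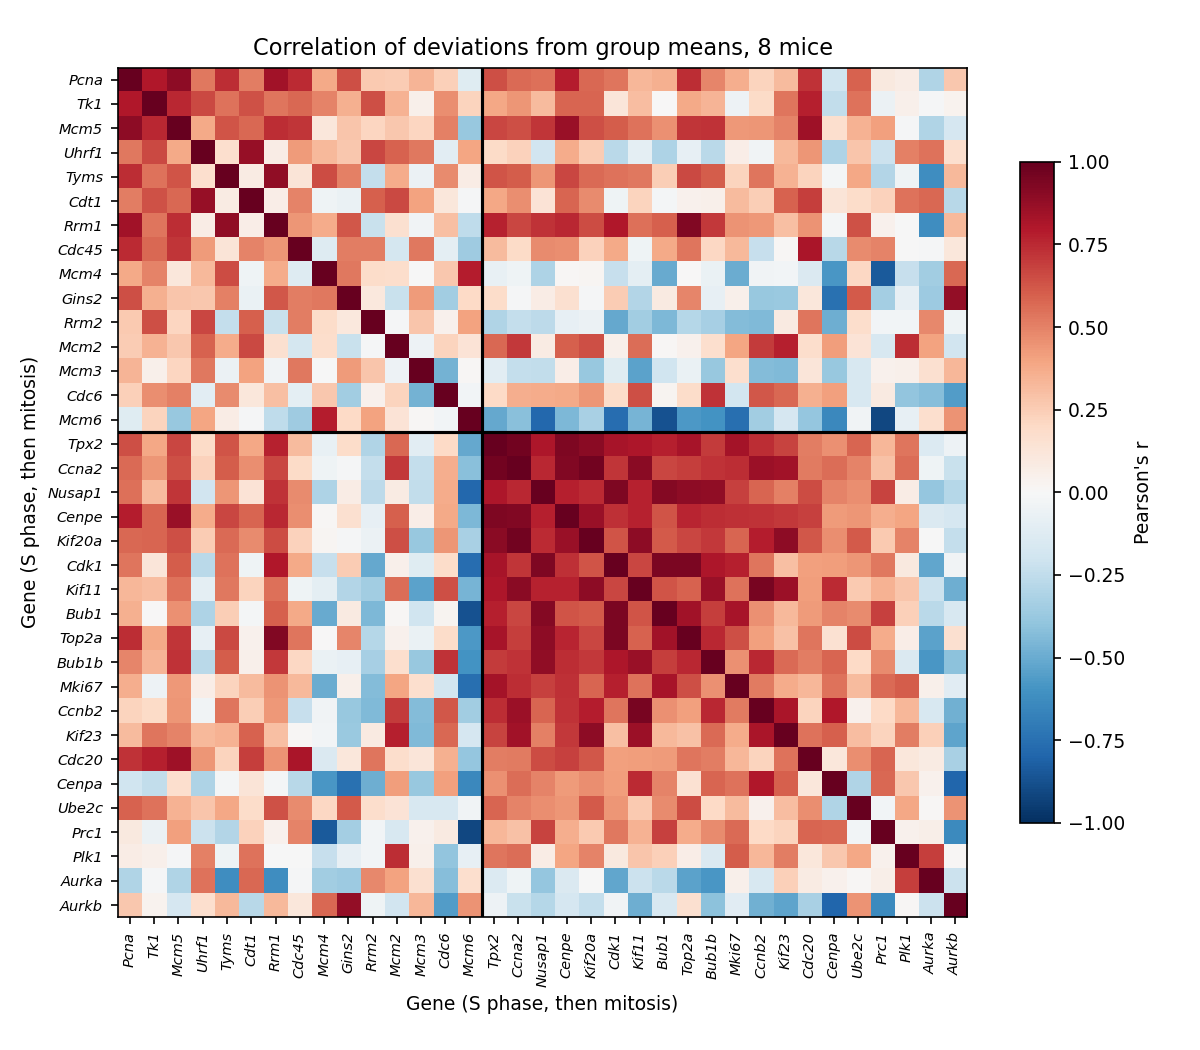
Pearson correlation over 8 mice between the deviations of 2 genes from their group means, for 15 S phase genes (top left block) and 20 mitosis genes (bottom right block), each ordered by its correlation with the rest of its class. Most mitosis genes from Tpx2 to Kif23 correlate positively, and Aurka and Aurkb do not.

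Other genes of mitosis, on a list without these members, placed the voglibose mice in the same order. They were read from the same 8 arrays, so this is not independent support. Mitotic spindle and kinetochore genes averaged -0.29, -0.37, 0.10 and 0.20 in voglibose mice 1 to 4 and 0.07, 0.07, -0.05 and 0.27 in water mice. Of 40 measured (41 listed), 8 were higher and 32 lower (80%), with a median difference of -0.17. Of all probe sets 50.9% were lower, and of those above the median signal 57.0%. At the unadjusted threshold 3 of the 40 (7.50%) passed, against 7.52% of all probe sets. These were the phosphatase gene Cdc25b (-0.54 ± 0.18) and the checkpoint genes Ttk (-0.53 ± 0.23) and Mad2l1 (-0.62 ± 0.27). Without voglibose mouse 1, Ttk was at -0.32 (limma unadjusted p = 0.126) and Mad2l1 at -0.39 (limma unadjusted p = 0.135). Ttk also did not pass without voglibose mouse 2 or water mouse 1, 2 or 3, and Mad2l1 did not pass without voglibose mouse 2 or any 1 of the water mice. Cdc25b passed with each mouse left out in turn. The median correlation between a mitosis gene and a gene of this list was 0.49 over 800 pairs.

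Replication factors beyond the members averaged -0.27, -0.14, 0.10 and 0.01 in voglibose and -0.01, 0.08, -0.01 and 0.24 in water mice. Voglibose mice 1 and 2 were thus the lowest mice here too, as for the mitosis genes. Of 32 measured (34 listed), 10 were higher and 22 lower (68.8%, against 57.0% of probe sets above the median signal), with a median difference of -0.14. The lowest signal of all 8 mice was in voglibose mouse 1 or 2 for 19 of the 32, against 27.3% of all probe sets. At the unadjusted threshold 5 passed (15.6%, against 7.52% of all probe sets), 4 of them lower (against 4.44% of all probe sets) and 1 higher (against 3.08%). Rpa3, the small subunit of the single-strand binding protein RPA, differed by -1.06 ± 0.32, the clamp loader subunit Rfc2 by -0.51 ± 0.20 and the GINS subunit Gins1 by -0.54 ± 0.22. The clamp loader subunit Rfc5 differed by 0.45 ± 0.16. Rpa3 passed with each mouse left out in turn. Rfc2 did not pass without voglibose mouse 1 or 2 or water mouse 4, Rfc5 without voglibose mouse 2, and Gins1 without voglibose mouse 1, 2 or 4 or water mouse 3 or 4. No gene of these lists passed after adjustment over all probe sets (limma, smallest adjusted p = 0.652).

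Of 25 transcription and checkpoint genes of the cell cycle, 13 were higher and 12 lower (median 0.01). At the unadjusted threshold 1 of the 25 passed, against 7.52% of all probe sets. This was Rbl2, which encodes p130, a member of the retinoblastoma family within the DREAM complex (0.36 ± 0.16). Rbl2 did not pass without voglibose mouse 1 or 2 or water mouse 1, 2 or 3. The 7 inhibitors of cyclin-dependent kinases had 2 higher and 5 lower genes (median -0.11), and 0 passed, against the same 7.52%. Their mean was -0.11, -0.16, 0.06 and 0.06 in voglibose mice, low in the same mice as the mitosis genes. In water mice it was 0.01, -0.04, 0.13 and 0.05, highest in mouse 3 and not in mouse 4. Members differed. Cdkn1b (9.27) and Cdkn2d (5.56) were lowest of the 8 mice in voglibose mouse 1. Cdkn1a was highest in voglibose mouse 1 (15.35) and Cdkn2a in voglibose mouse 2 (3.30).

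**Figure D5:**
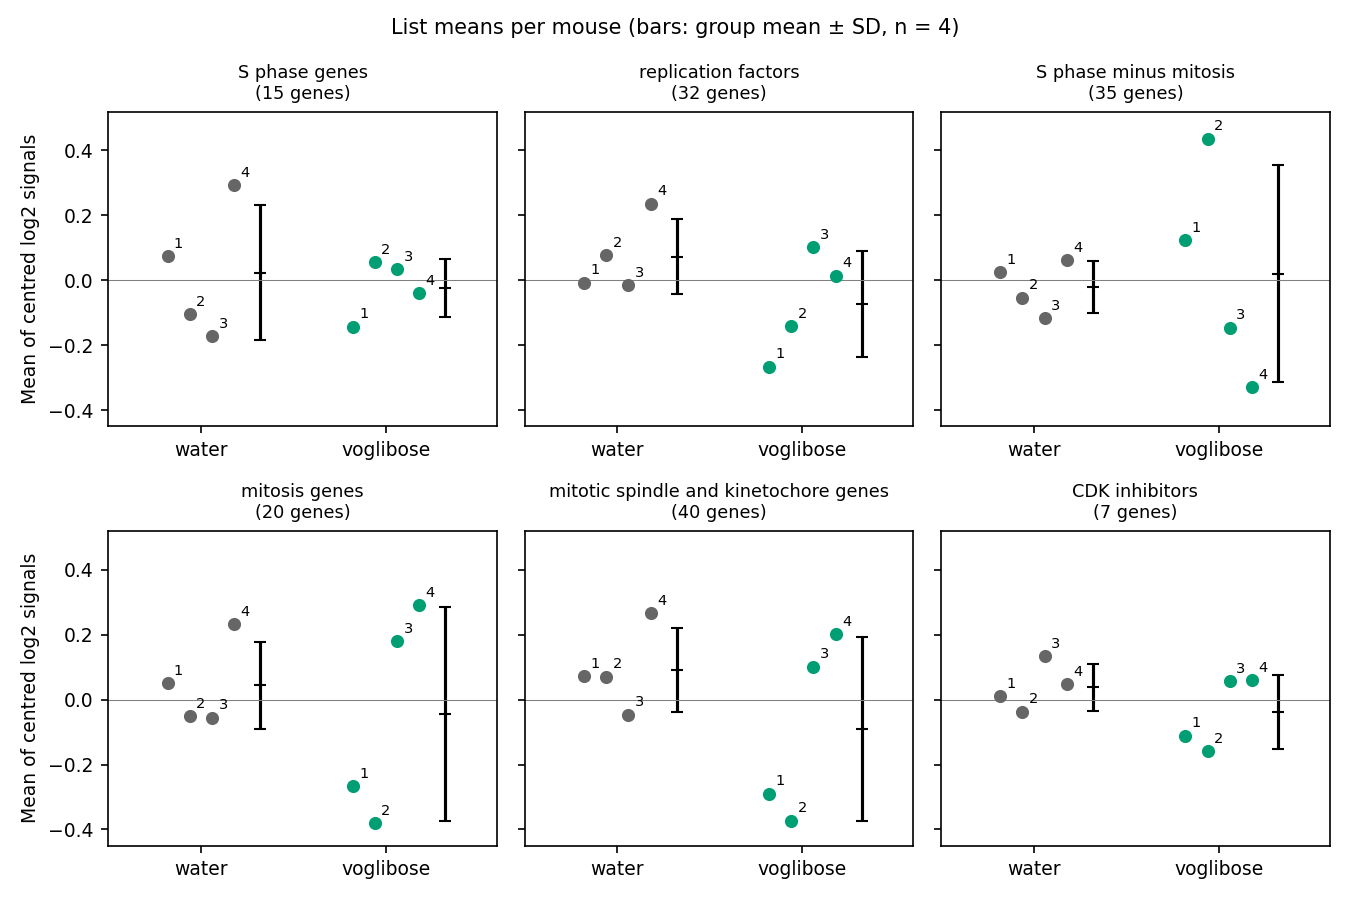
Mean of the centred log2 signals of a gene list in each mouse (y axis, numbered points) for water and voglibose mice, with the group mean ± SD (n = 4) beside them. Panels show the S phase genes, other replication factors, the S phase minus the mitosis mean, the mitosis genes, spindle and kinetochore genes and inhibitors of cyclin-dependent kinases. Voglibose mice 1 and 2 are the lowest mice for mitosis genes (-0.27 and -0.38) and for spindle genes (-0.29 and -0.37). They are also lowest for the other replication factors (-0.27 and -0.14) and the inhibitors (-0.11 and -0.16), but not for the S phase genes.

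Markers of the cell types in the sample were compared with this order of mice. Intestinal stem cell markers (8 of 10 measured) averaged -0.03, -0.07, 0.15 and 0.08 in voglibose mice, lower in mice 1 and 2 than in mice 3 and 4. In water mice they averaged -0.02, 0.13, 0.08 and -0.32, so water mouse 4 was lowest there and highest for mitosis genes. The log2 of their summed signal ran from 13.15 to 13.96 in water and 13.26 to 13.66 in voglibose mice. The stem cell markers differed in their order among voglibose mice. Lgr5, Axin2 and Slc12a2 were lower in mice 1 and 2 than in mice 3 and 4. Sox9 was highest in mouse 1 (8.16), and Cdca7 (7.98), Tnfrsf19 (5.85) and Smoc2 (4.34) in mouse 2. Ascl2 was lowest in mouse 4 (3.19). Smooth muscle markers (7 of 7) averaged -0.33, -0.34, 0.74 and 0.18 in voglibose and 0.05, 1.66, -0.37 and -1.58 in water mice, with summed levels of 14.25 to 17.41 in water and 15.47 to 16.54 in voglibose mice. Fabp6 also was lower in voglibose mice 1 and 2 (8.14 and 3.54) than in mice 3 and 4 (10.78 and 11.68). Water mice did not follow this relation. Their Fabp6 was 8.51, 17.50, 14.11 and 4.01, lowest in water mouse 4, the highest water mouse for mitosis genes. The part of these markers in the spread of the mitosis genes was not tested.

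Villus enterocyte markers (10 of 10) averaged 0.07, 0.12, -0.04 and -0.07 in voglibose mice, higher in mice 1 and 2, where mitosis genes were low. In water mice they averaged 0.14, -0.56, 0.11 and 0.23, so water mouse 4 was the highest water mouse for both lists. Members differed. Among voglibose mice, Sis (18.61) and Fabp2 (19.02) were highest in mouse 4, Fabp1 (16.22) in mouse 2 and Lct (15.85) in mouse 1. Summed levels ran from 21.24 to 21.32 in voglibose and from 21.11 to 21.37 in water mice. Ada, a villus purine enzyme, was the single gene of the 10 past the unadjusted threshold, against 7.52% of all probe sets. Its difference was -0.89 ± 0.37. It was -0.48 without voglibose mouse 2 and -0.66 without water mouse 2, and it did not pass without these mice or without voglibose mouse 1 or water mouse 3. Lymphoid follicles also hold dividing cells. Germinal centre B cell markers (6 measured, 3 of them above the median of all probe sets) averaged -0.36, 0.18, 0.24 and -0.36 in voglibose and 0.31, -0.01, -0.15 and 0.16 in water mice, so neither group was uniformly high. Of these markers 4 were higher and 2 lower, with a median difference of 0.06. The lower genes, Fas (-0.70 ± 0.22) and Rgs13 (-0.90 ± 0.40), passed the unadjusted threshold that 7.52% of all probe sets passed. They were the brightest of the list (means of 8.95 and 8.61) and weigh most in its summed level. Rgs13 was highest in water mouse 2 (10.01), where the B cell genes Cd79a (6.96) and Cd79b (5.44) were lowest. The other measured B cell genes were lowest elsewhere. Ms4a1 (3.34) and Pax5 (3.24) were lowest in water mouse 4, Cr2 (3.40) and Fcer2a (6.44) in water mouse 3 and Blk (4.71) in voglibose mouse 1. Which cells gave the signals of Fas and Rgs13 was not tested. Rgs13 did not pass without voglibose mouse 1 (-0.59), voglibose mouse 4, water mouse 1 or water mouse 2 (-0.59). B cell markers (7 of 8) averaged -0.47, 0.10, 1.35 and -0.74 in voglibose and 1.58, -0.69, -0.42 and -0.72 in water mice. Voglibose mouse 4, highest in mitosis genes, was among the lowest for both lymphoid lists. Voglibose mouse 3, also high in mitosis genes, was the highest voglibose mouse for both. Voglibose mouse 1, low in mitosis genes, was the lowest mouse for the germinal centre list. The part of these lists in the spread of the mitosis genes was not tested. Summed levels ran from 10.13 to 10.69 in water and 9.36 to 10.24 in voglibose mice for the germinal centre list, and from 8.52 to 11.18 and 8.44 to 10.80 for B cells. Of the remaining lists (Paneth, goblet, plasma and T cells and macrophages), 0 members passed the unadjusted threshold, against 7.52% of all probe sets.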

How the data were processed

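Each of the 8 mice gave 1 array, and groups were read from the sample labels. The authors deposited log2 signals per probe set. Per the submitters' processing notes, RMA and the Transcriptome Analysis Console served for this (versions not stated). The log2 scale was read from the deposited values (2.09 to 19.55). The genome build is not given in the sources used here. Scan dates were not used here, so no batch was tested. RMA equalizes the distributions of arrays, so a change in total RNA is not seen, and it compresses the differences of dim genes.

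All 22206 probe sets were fitted with limma 3.58.1 under R 4.3.3, by the functions lmFit and eBayes (2-sided, 11.1 total degrees of freedom), with Benjamini-Hochberg adjustment over all of them and a threshold of 0.05. The p-values measure the spread between these mice. Of the probe sets, 19572 had 1 gene symbol and 2634 none, and symbols were matched through gene identifiers to RefSeq names. A gene with several probe sets was represented by the one with the highest mean. At most 1.27% of values were identical between 2 arrays. On simulated data (22206 probe sets, 20 runs), 11.0% of genes changed 1.5-fold, 70.7% changed 2-fold and 96.2% changed 3-fold were recovered at an adjusted p of 0.05. Figures were drawn with matplotlib 3.10.9.

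The members and the gene lists were chosen with earlier results of these data known. Values per mouse were given for Mki67, Top2a, Pcna, Cdk1, Mcm2 and Rrm2, for the 4 members with the smallest p in each role class, and for others where stated. Of the other lists, up to 4 members with the smallest p were named. Alternatives were a further quantile normalization, a linear model without moderation, trend and robust fitting, a filter on dim probe sets, the mean of a gene's probe sets, the replicate number as a block and leaving out mice. The promoter windows hold 250 bases before the start, and bases after it were not searched.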

Additional observations from a re-analysis of the deposited data

Results flagged for a closer look

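Kif23, a kinesin of the midbody needed to finish cell division, had a signal of 11.39 in voglibose mouse 4, while the other voglibose mice lay between 10.69 and 10.76. The gap from this mouse to the next was 0.90 of the range of the group, above Dixon's critical value for 4 samples. Of 90 groups of 4 mice examined over the 40 genes and their class means, 1 stood out in this way, and chance flags about 1 in 20 groups.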

How the results depend on the processing

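After adjustment over all probe sets, 0 probe sets and 0 members passed under every alternative run. The count of members past the unadjusted threshold was 2, and it became 1 under a further quantile normalization (Uhrf1, higher), 1 without moderation of the variance (Cdc45), 1 with trend and robust fitting and 1 with the replicate number as a block (Ccne2 in both). It ran from 0 to 4 when single mice were left out. The count over all probe sets was 1671, with 988 of the 11101 probe sets above the median signal (8.90%), and 969 to 1906 when single mice were left out, the lowest without voglibose mouse 1. The numbers in the labels were not treated as pairs, since they are not said to pair mice. Deviations of same-numbered mice correlated at 0.015, -0.32, 0.014 and -0.18 over all probe sets, which cannot settle whether mice were paired. The median difference of the members was -0.02 after a further quantile normalization and ran from -0.12 to -0.0046 when single mice were left out. That of the mitosis genes ran from -0.22 to 0.019, positive only without voglibose mouse 2. The S phase minus mitosis difference ran from -0.097 to 0.16, negative only without voglibose mouse 2, and leaving out water mouse 4 with voglibose mouse 2 gave -0.070. The sign of Top2a turned to 0.061 with a further quantile normalization and to 0.26 without water mouse 4 and voglibose mouse 2, and single mice left out gave -0.24 to 0.14. That of Mcm2 turned to 0.061 and 0.0067 under the same changes and ran from -0.12 to 0.093. Without water mouse 4 and voglibose mouse 2, Cdk2 turned to 0.073 and Tk1 to 0.063. Single mice left out gave -0.22 to 0.025 for Cdk2, -0.14 to 0.080 for Tk1, -0.19 to 0.077 for Tyms and -0.12 to 0.12 for Cdc6. The cause of these changes was not tested. Precision is limited by having 4 arrays in a group, and a 1.5-fold change would mostly have been missed.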
